A study of Mus musculus with 10 samples.

Results

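The cGAS-STING signalling core was described here as 9 genes of the 22198 in the deposited expression table. They were found by symbol, with older symbols allowed, and all 9 were present. They are the DNA sensor Cgas, the adaptor Sting1, the kinases Tbk1 and Ikbke, the transcription factors Irf3 and Irf7, and the enzymes Trex1, Enpp1 and Samhd1, which remove DNA, cGAMP and deoxynucleotides. RNA was sequenced from the brain cortex of untreated mice aged 6 months, with 5 libraries labelled ctrl (wild type for Mic19) and 5 labelled BKO (Mic19 knockout). Mic19 is the product of Chchd3 and belongs to MICOS, the complex that shapes the cristae of mitochondria. The strain, and the promoter or Cre line behind the knockout, are not given in the sources used here. Nor is it stated whether separate mice gave the libraries, and every p-value below therefore measures only the spread between them, which may be technical. The title of the study names leaked mitochondrial DNA and cGAS-STING signalling, which is the question the 9 genes bear on.

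In this pathway, cGAS binds double-stranded DNA in the cytosol, whether viral, nuclear or mitochondrial, and makes the messenger cyclic GMP-AMP (cGAMP). cGAMP binds STING, a membrane protein of the endoplasmic reticulum, which moves to the Golgi and recruits TBK1 and its relative IKK-epsilon. These kinases activate IRF3 and IRF7, which switch on type I interferon and interferon-stimulated genes. Activation runs through ligand binding, protein movement and phosphorylation, none of which RNA levels measure. In the brain, microglia and vessel cells are known as main sites of STING expression, and Irf7 is itself an interferon-stimulated gene.

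Levels were in FPKM, a read count scaled by transcript length and by library total, as the authors computed them. Differences between the genotypes are BKO minus ctrl on the scale log2(FPKM + 0.5), on which low genes show less than their full change. The limma test covered the 14447 genes that reached 0.5 FPKM in 5 or more libraries, and a gene rose or fell when its adjusted p was under 0.05. Read totals were not used here, so no counting error is given. Relative depths estimated from the steps between low values were 0.862 to 1.14, a rough estimate, as the fitted depths came within 0.05 log2 for 22 of 45 library pairs. The sum of 7 of 7 neuronal markers, which mark the labelled tissue, ran from 4117 to 4557 FPKM in ctrl and from 3792 to 4211 FPKM in BKO. Of these, 1 was called lower, Snap25, the largest part of the sum (-0.18, SE 0.0474, limma adjusted p = 0.0379). That call was lost in 8 of 10 fits with 1 library left out. Levels of the targeted gene, Chchd3, were no lower under the BKO label: 73.1, 77.3, 80.6, 79.0 and 82.3 FPKM in ctrl 1 to 5, and 94.2, 89.4, 88.3, 81.5 and 87.7 FPKM in BKO 1 to 5 (log2 difference 0.17, limma adjusted p = 0.0528). It was called higher after scaling to equal sums (limma adjusted p = 0.0226), after quantile normalization (0.0240) and without ctrl 5 (0.0403) or BKO 4 (0.0289). A whole-gene value does not test the loss of part of a gene, so ctrl and BKO below mean the libraries as labelled. In 6 libraries, namely ctrl 1, 3 and 5 and BKO 1, 2 and 5, Ttr, the main transcript of the choroid plexus, stood at 1098 to 2720 FPKM. In the other 4, namely ctrl 2 and 4 and BKO 3 and 4, it stood at 38.9 to 89.9 FPKM. The summed level of 7 of 7 choroid plexus markers ran from 1119 to 2759 FPKM in the former and from 44.8 to 94.6 FPKM in the latter, with none at 0 throughout. Most of that sum is Ttr itself, 2568 of 2612 FPKM in ctrl 1 and 39.8 of 44.8 FPKM in ctrl 2. It therefore largely repeats the Ttr values and is not separate evidence.

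Of the 9 genes, 8 met the filter on low values. Irf7 was the 1 gene called, higher in BKO, and none was called lower. Over all genes tested, 3.32% were called higher and 2.46% lower, 5.79% together, so 1 of 8 is a count too small to set the group apart. The 8 tested members had a median difference of 0.15 on the log2 scale, from -0.13 to 0.80, against a median of -5.25e-05 over all genes tested. Only Irf7 had all 5 BKO libraries above all 5 ctrl libraries, as had 3.62% of all genes tested, and it was also the only member with an unadjusted limma p under 0.05, a threshold that 17.5% of all genes tested passed.

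**Figure D1:**
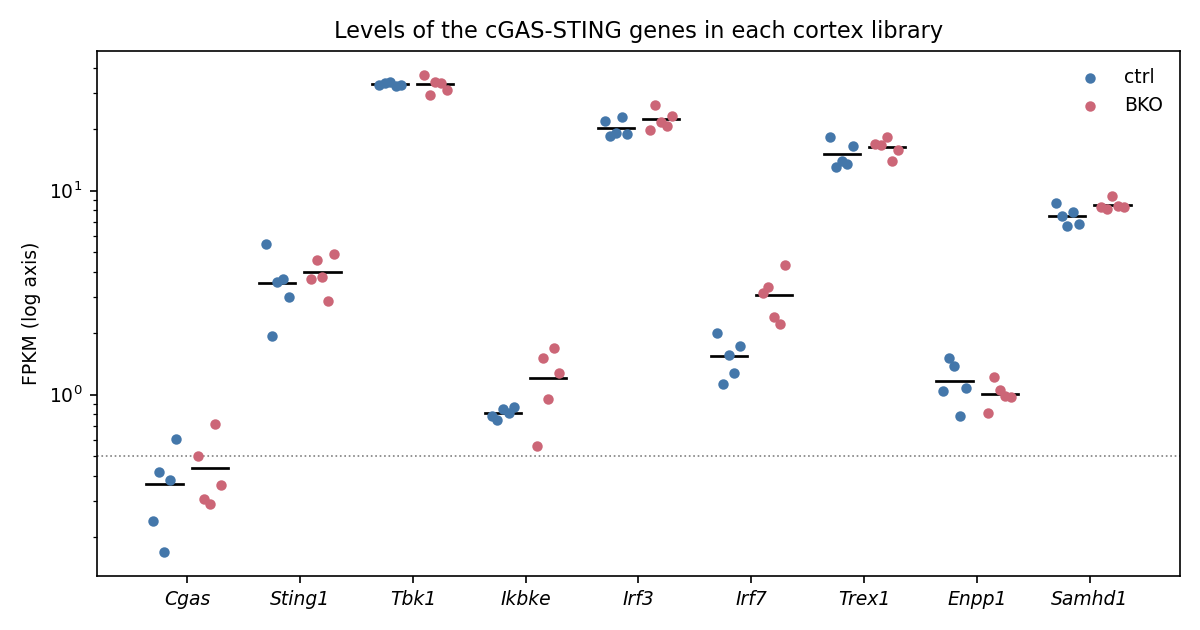
FPKM (log axis) of the 9 genes in each library, ctrl in blue and BKO in red, with black bars at the group means and a dotted line at 0.5 FPKM, the filter on low values. Tbk1 stood highest at about 33 FPKM, Cgas lowest, and the groups were separate for Irf7 alone.

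Levels per length differed widely within the pathway. In ctrl the order from high to low was Tbk1, Irf3, Trex1, Samhd1, Sting1, Irf7, Enpp1, Ikbke and Cgas, from 33.2 to 0.364 FPKM. The first 5 were separate from each other, each gene lying above the next in every library of the group. Sting1 and Irf7 overlapped, as did Irf7 and Enpp1, and Enpp1 and Ikbke. In BKO the order was the same except that Ikbke stood above Enpp1, with overlapping ranges, and Irf7 lay above both without overlap. The mean of Tbk1 over all libraries was at the 79.5th percentile of the genes in the table, Sting1 at the 48.0th and Cgas at the 34.0th.

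Cgas, which starts the pathway, lay near the limit of measurement. It stood at 0.24, 0.42, 0.17, 0.38 and 0.61 FPKM in ctrl 1 to 5, and at 0.50, 0.31, 0.29, 0.72 and 0.36 FPKM in BKO 1 to 5. The groups overlapped, with 1 BKO library above every ctrl library. The mean was 0.364 ± 0.171 FPKM for ctrl, against 0.436 ± 0.179 FPKM for BKO (SD, n = 5 each; exact permutation test, 2-sided, p = 0.532). Without BKO 4 the difference of the means was 0.001 FPKM, and without ctrl 5 it was 0.134 FPKM. The coefficient of variation over the 10 libraries was 42.3%, against 5.97% for Tbk1. Of its exonic bases 4.92% are shared with a gene on the opposite strand, Gm8093, in GENCODE M21, and strand use in counting is not given in the sources used here.

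Sting1, the adaptor that binds cGAMP, varied more within each genotype than between them. It stood at 5.46, 1.94, 3.55, 3.69 and 3.02 FPKM in ctrl 1 to 5, and at 3.70, 4.59, 3.79, 2.88 and 4.88 FPKM in BKO 1 to 5. Both the highest and the lowest of the 10 values were ctrl libraries. The log2 difference was 0.19 (SE 0.198, limma adjusted p = 0.697), with a 95% interval from -0.24 to 0.61, and it moved to 0.02 without ctrl 2, the lowest library, and to 0.34 without ctrl 1, the highest.

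Of the kinases, Tbk1 showed the smallest difference of the 8 tested members. It ranged from 32.4 to 34.1 FPKM in ctrl, a coefficient of variation of 1.88%, and from 29.5 to 37.0 FPKM in BKO, where the coefficient was 8.77%. Of the BKO libraries 2 lay above and 2 below every ctrl library. The log2 difference was -0.01 (SE 0.0585, limma adjusted p = 0.958), with a 95% interval from -0.14 to 0.12, and its sign changed with the scaling and with the library left out.

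Ikbke, which encodes the inducible relative IKK-epsilon, was the least even member in BKO apart from Cgas. Its values were 0.79, 0.75, 0.85, 0.81 and 0.87 FPKM in ctrl 1 to 5, and 0.56, 1.52, 0.95, 1.70 and 1.28 FPKM in BKO 1 to 5. Thus 4 BKO libraries lay above every ctrl library and BKO 1 lay below all of them. The mean was 0.814 ± 0.0477 FPKM for ctrl and 1.20 ± 0.456 FPKM for BKO (SD, n = 5 per group). Short stretches of its exons, 0.604% and 1.21%, overlap Gm28913 and Gm28914 on the opposite strand in GENCODE M21. The log2 difference of 0.33 did not pass (SE 0.190, limma adjusted p = 0.418, 95% interval -0.08 to 0.74). Set against Tbk1 within each library, Ikbke had 2.23% to 2.63% of the Tbk1 level in ctrl and 1.52% to 5.15% in BKO. On the log2(FPKM + 0.5) scale, where the change of the lower gene is reduced, the ratio of Ikbke to Tbk1 was 0.34 higher in BKO. It was higher than in every ctrl library in 4 of 5 BKO libraries (exact permutation test, 2-sided, p = 0.135, and 0.135 after Benjamini-Hochberg adjustment over 2 such ratios). Without BKO 1 alone it was 0.54 higher (exact permutation test, 2-sided, p = 0.00794), and that library decides the result. In the fit over all genes, Ikbke was not called without BKO 1 either (0.49, limma adjusted p = 0.120).

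**Figure D2:**
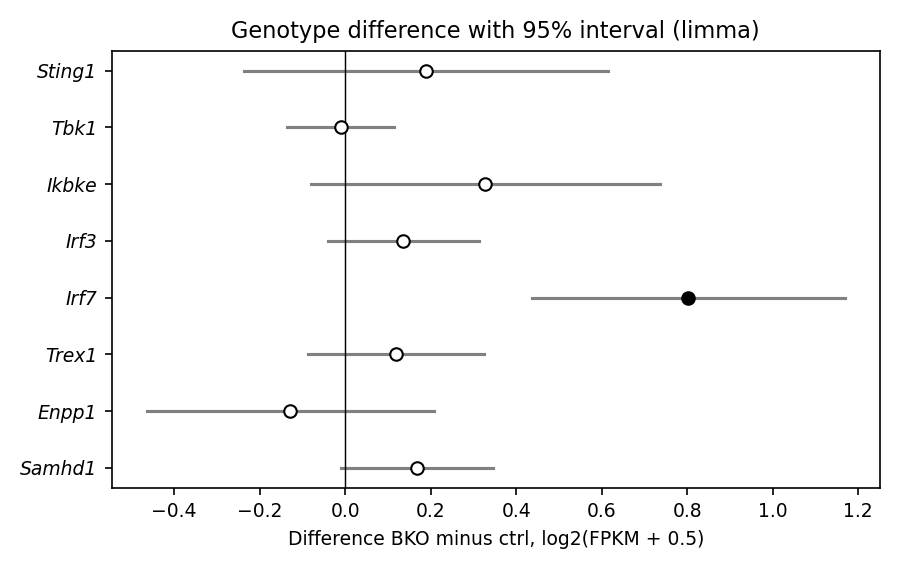
Differences BKO minus ctrl on the log2(FPKM + 0.5) scale for the 8 tested genes, with 95% intervals from limma; the filled point passed at an adjusted p under 0.05. The interval of Irf7, from 0.44 to 1.17, lies above 0, while the other 7 intervals include 0.

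Irf7, a transcription factor that amplifies interferon induction, rose. Its values were 2.00, 1.13, 1.57, 1.27 and 1.74 FPKM in ctrl 1 to 5, and 3.16, 3.37, 2.41, 2.22 and 4.31 FPKM in BKO 1 to 5. The groups did not overlap, and the nearest values were 2.22 FPKM in BKO 4 and 2.00 FPKM in ctrl 1. Means were 1.54 ± 0.351 and 3.09 ± 0.835 FPKM (SD, n = 5 each), a ratio of 2.01 in FPKM. The log2 difference was 0.80 (SE 0.171, limma adjusted p = 0.010, higher in 5 of 5 BKO libraries than in any ctrl library), and it passed in each of 10 fits that left out 1 library (0.69 to 0.90). No other gene shares its exons in GENCODE M21. In bulk tissue, more cells that express Irf7 and more Irf7 RNA per cell cannot be told apart.

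Irf3, its relative, which is present before any stimulus and is activated by phosphorylation, was not called. It stood at 21.9, 18.5, 19.1, 22.9 and 19.0 FPKM in ctrl 1 to 5, and at 19.9, 26.3, 21.6, 20.8 and 23.2 FPKM in BKO 1 to 5. The groups overlapped, with 2 BKO libraries above every ctrl library, and the log2 difference was 0.14 (SE 0.0826, limma adjusted p = 0.440, 95% interval -0.04 to 0.31). The change of Irf7 was set against that of Irf3 within each library. Irf7 had 5.55% to 9.18% of the Irf3 level in ctrl and 10.7% to 18.6% in BKO. The log2 ratio of Irf7 to Irf3 was 0.67 higher in BKO, above every ctrl library in 5 of 5 (exact permutation test, 2-sided, p = 0.00794, the smallest that 5 against 5 libraries allow, and 0.0159 after Benjamini-Hochberg adjustment over 2 ratios).

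The promoter windows of Irf7 and Irf3 are shown because these relatives differed in their change, and that of Ifit3 because it is an interferon-stimulated gene that rose. Each runs from 250 bases before to 50 bases after the start of a RefSeq transcript, 5′ to 3′ on the gene's strand (build GRCm38.p6, which is not the mm39 build of the expression table). The windows shown lie at chr7:141266375-141266674 (minus strand), chr7:44997398-44997697 (plus strand) and chr19:34583279-34583578 (plus strand). Capitals mark matches on either strand to the core of the interferon-stimulated response element (GAAA, any 2 bases, GAAA) and to the TATA box TATAAA.
Irf7: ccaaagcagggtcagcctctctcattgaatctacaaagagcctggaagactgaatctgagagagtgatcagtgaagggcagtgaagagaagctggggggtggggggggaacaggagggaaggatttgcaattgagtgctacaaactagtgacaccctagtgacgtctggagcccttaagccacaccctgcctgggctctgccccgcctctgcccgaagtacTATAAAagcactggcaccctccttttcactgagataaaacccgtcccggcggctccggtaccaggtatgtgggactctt
Irf3: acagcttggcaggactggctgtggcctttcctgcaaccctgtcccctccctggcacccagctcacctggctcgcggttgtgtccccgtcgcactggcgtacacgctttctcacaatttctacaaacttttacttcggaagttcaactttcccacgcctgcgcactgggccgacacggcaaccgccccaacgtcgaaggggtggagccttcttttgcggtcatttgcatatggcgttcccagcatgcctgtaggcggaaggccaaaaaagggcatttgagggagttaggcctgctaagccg
Ifit3: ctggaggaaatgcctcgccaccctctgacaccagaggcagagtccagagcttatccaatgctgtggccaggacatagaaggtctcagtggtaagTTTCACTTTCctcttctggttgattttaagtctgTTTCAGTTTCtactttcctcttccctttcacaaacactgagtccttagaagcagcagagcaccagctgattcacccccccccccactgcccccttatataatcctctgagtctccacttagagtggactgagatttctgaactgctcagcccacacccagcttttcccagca
The Ifit3 window held 2 matches to the response element core, from positions 95 and 129 of its 300 bases. Of all 32851 windows 3.44% held that motif, and none of the 9 windows searched for the members did, Sting1 being left out. Against that share, 0 of 9 does not set the members apart. TATAAA, which was searched after these windows had been read, was in 13.6% of all windows and in that of Irf7 alone among the members', from position 222. The STAT palindrome TTCNNNGAA, in 8.30% of all windows, was found in that of Samhd1 alone, from position 16. A match describes letters only, and binding was not measured.

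Within each genotype, Irf7 was higher in the libraries with choroid plexus RNA. In ctrl it stood at 1.57 to 2.00 FPKM in the 3 libraries with that RNA and at 1.13 and 1.27 FPKM in the 2 without. In BKO it stood at 3.16 to 4.31 FPKM in the 3 with it and at 2.22 and 2.41 FPKM in the 2 without. This order in both genotypes was found for 1.38% of genes tested and for no other member. The log2 difference between the genotypes was 0.85 among the 6 libraries with choroid plexus RNA (limma adjusted p = 0.0208) and 0.73 among the 4 without, where it did not pass (limma adjusted p = 0.220). Groups did not overlap in either set, but exact tests of 3 against 3 and 2 against 2 libraries cannot go below 0.10 and 0.333. Among the 4 without that RNA, Tbk1, Ikbke, Trex1 and Samhd1 also had BKO above ctrl without overlap, so this does not set Irf7 apart there. Among the 6 with it, no other member did. The shares over all genes tested were not computed. With choroid plexus RNA as a term in the fit, the difference was 0.80 with a smaller error (SE 0.121, limma adjusted p = 0.000801), and Irf7 was still the 1 member called. Trex1 was higher in ctrl libraries with that RNA than in those without, as were 10.9% of genes tested, and Samhd1 was lower in BKO libraries with it, as were 8.63%. In the opposite directions the shares were 9.97% lower in ctrl and 9.31% higher in BKO, and no member but Irf7 was among the latter. Neither Trex1 nor Samhd1 kept its order in the other genotype.

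**Figure D3:**
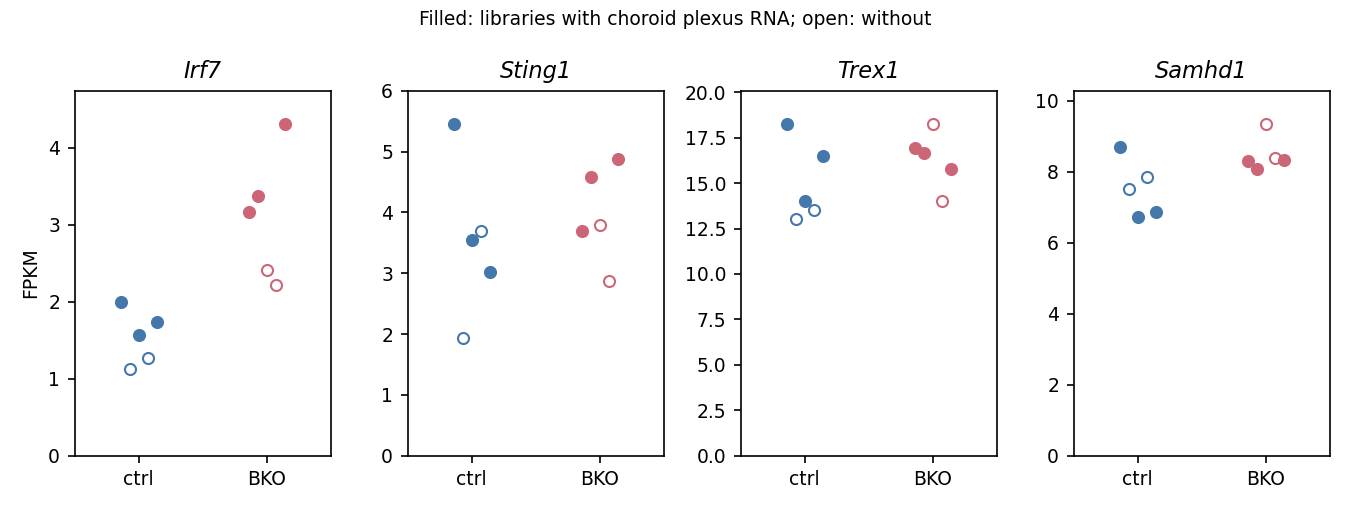
FPKM of Irf7, Sting1, Trex1 and Samhd1 in each library, by genotype, with filled circles for the 6 libraries with choroid plexus RNA and open circles for the 4 without. Irf7 lies higher in the filled circles of both genotypes, and BKO lies above ctrl among filled and among open circles. Among open circles BKO also lies above ctrl for Trex1 and Samhd1.

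The enzymes that limit the pathway were not called. Trex1, the exonuclease that degrades DNA in the cytosol, ranged from 13.0 to 18.3 FPKM in ctrl and from 14.0 to 18.3 FPKM in BKO (log2 difference 0.12, SE 0.0959, limma adjusted p = 0.591). No BKO library lay outside the ctrl range. Enpp1, which hydrolyses cGAMP outside the cell and also ATP, ranged from 0.79 to 1.52 FPKM in ctrl and from 0.81 to 1.22 FPKM in BKO (log2 difference -0.13, SE 0.157, limma adjusted p = 0.747). Its BKO values, too, all lay within the ctrl range.
Samhd1, which breaks down deoxynucleotides and acts at stalled replication forks, came nearest to a call among the 7 tested members that did not pass. It stood at 8.69, 7.51, 6.71, 7.86 and 6.85 FPKM in ctrl 1 to 5, and at 8.31, 8.08, 9.35, 8.38 and 8.34 FPKM in BKO 1 to 5. Of the ctrl libraries 4 lay below every BKO library, and ctrl 1 lay above 4 of the 5. The log2 difference was 0.17 (SE 0.0826, limma adjusted p = 0.315, 95% interval -0.01 to 0.35).

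Markers of the cells that could carry these genes moved to different degrees. The summed level of 10 of 10 microglial markers ran from 346 to 409 FPKM in ctrl and from 384 to 432 FPKM in BKO. Of these markers 1 was called higher, against 3.32% of all genes tested, namely C1qa, a complement subunit (0.39, SE 0.0656, limma adjusted p = 0.00156). At an unadjusted limma p under 0.05, 4 of 10 passed, against 17.5% of all genes tested, with differences in both directions. With 1 library left out, 1 to 2 were called higher. The sum of 7 of 7 endothelial markers ran from 50.9 to 63.0 FPKM in ctrl and from 51.9 to 78.5 FPKM in BKO, lowest there in BKO 1. None was called, though all 7 had positive log2 differences (median 0.21), as had 7220 of 14447 genes tested. Without BKO 1, 2 were called higher, and without ctrl 4, 1 was. For 5 of 5 border macrophage markers the sum ran from 2.96 to 5.75 FPKM in ctrl and from 3.46 to 6.29 FPKM in BKO, and for 6 of 6 markers of neutrophils and monocytes from 4.13 to 16.9 and from 3.12 to 55.9 FPKM, highest in BKO 2. Astrocyte markers summed to 1747 to 1960 FPKM in ctrl and 2148 to 2400 FPKM in BKO. Of these markers 4 of 7 were called higher, against 3.32% of all genes tested. Most of the rise in the mean sum, from 1859 to 2271 FPKM, was Gfap (85.4 FPKM in ctrl, 435 FPKM in BKO). Aldoc, Slc1a2 and Gja1 were not called. Oligodendrocyte markers summed to 2842 to 3386 FPKM and 960 to 1307 FPKM, with 7 of 7 called lower, against 2.46% of all genes tested. No marker of these lists was at 0 in every library. The part of these cells in the values of the 9 genes was not tested.

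Around the core, 7 lists of genes that release mitochondrial DNA, sense or clear DNA, carry cGAMP or act on cGAS, STING and the kinases held 90 tested genes. Of these 3 were called higher and none lower by limma, or 3.33%, about the 3.32% of all genes tested. The count includes Ifi204, which entered the test through the BKO libraries alone. Among 15 tested DNA sensors and their cofactors other than cGAS, with a median log2 difference of -0.00494, the 1 called was Ifi204, an interferon-inducible DNA-binding protein. It stood at 0.17 to 0.31 FPKM in ctrl and 0.58 to 1.04 FPKM in BKO and met the filter through the BKO libraries alone, so that a difference was bound up with its entry to the test and no p is given for it. It left the test when any BKO library was dropped. Of 13 other nucleases and related enzymes that clear self nucleic acid, Dnase2a, the lysosomal DNase, was called higher (0.57, SE 0.153, limma adjusted p = 0.0418). Leaving out any library except ctrl 4, ctrl 5 and BKO 5 ended that call (limma adjusted p = 0.0533 to 0.109), as did the absence of a filter (limma adjusted p = 0.0897), quantile normalization (limma adjusted p = 0.0633), the replicate block (limma adjusted p = 0.0890) and choroid plexus RNA as a term (limma adjusted p = 0.0516).
None of 10 tested regulators of cGAS, of 18 genes of STING traffic and turnover, of 10 partners of the kinases or of 16 genes tied to the release of mitochondrial DNA was called by limma. At an unadjusted p under 0.05 they held 0, 3, 1 and 3 genes, where 17.5% of all genes tested passed. Of the mitochondrial release genes 3 were called higher without ctrl 5 and 1 without ctrl 3 or BKO 2, while 2 were after scaling to equal sums and 1 with library quality weights or in the replicate block. Of the STING traffic genes 1 was called lower without BKO 2, without BKO 4 or without a filter on low values.

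Of 8 tested genes for the transport and breakdown of cGAMP, 1 was called higher, Lrrc8a, against 3.32% of all genes tested. It encodes the obligate subunit of the volume-regulated anion channel, through which cGAMP passes between cells. It stood at 26.7 ± 0.766 FPKM for ctrl and 36.3 ± 1.70 FPKM for BKO (SD, n = 5 per group), without overlap. On the log2 scale it was 0.43 higher (SE 0.0481, limma adjusted p = 3.69e-05). It passed in each of 10 fits with 1 library left out, with choroid plexus RNA as a term, and in both sets of libraries split by that RNA. None of the channel's other subunits that were tested was called. The channel's main known role is in cell volume.

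Below the core, 2 of 5 tested interferon regulatory factors other than Irf3 and Irf7 were called higher, against 3.32% of all genes tested. Irf9, part of the complex that interferon activates, rose from 8.89 ± 0.617 to 12.3 ± 1.02 FPKM (SD, n = 5 each; log2 difference 0.44, SE 0.0757, limma adjusted p = 0.00191). Among the 6 libraries with choroid plexus RNA and the 4 without, Irf9 differed by 0.44 in each, and neither set passed alone (limma adjusted p = 0.0746 and 0.179). Irf1 rose by 0.46 (SE 0.120, limma adjusted p = 0.0363), and only without ctrl 4, ctrl 5, BKO 1 or BKO 3 did it stay past the threshold (otherwise limma adjusted p = 0.0756 to 0.0970). Without a filter on low values it was not called either (limma adjusted p = 0.0771).
The 17 tested interferon-stimulated targets had a median log2 difference of 0.70. Of these, 10 were called higher and none lower, against 3.32% and 2.46% of all genes tested. They included Lgals3bp, a secreted glycoprotein (0.98, SE 0.105, limma adjusted p = 2.47e-05), Ifit3 (0.70, SE 0.130, limma adjusted p = 0.00373) and the RNA-binding Ifit1 (0.83, SE 0.158, limma adjusted p = 0.00430). Of the 10, Cxcl10 and Rsad2 reached the filter level in 2 and 1 ctrl libraries and in 5 of 5 BKO libraries, so that they met the filter mainly through BKO. The count was 7 to 10 with 1 library left out, 7 without any filter, 7 of 12 at the stricter filter, 10 with choroid plexus RNA as a term and 3 in each set of libraries split by that RNA. The ligands themselves were hardly seen: Ifnb1, Ifna1 and Ifna4 were listed at 0 in all 10 libraries, and Ifna2 was above 0 in 1 BKO library. Of 12 genes of NF-kB, the other branch below STING, Chuk, an IKK kinase, was called higher (0.21, SE 0.0583, limma adjusted p = 0.0479), a call lost on leaving out any library but ctrl 1 (limma adjusted p = 0.0503 to 0.127). Chuk also lost it without a filter (limma adjusted p = 0.0552), after median-of-ratios rescaling (0.0527) or quantile normalization (0.0581), in the replicate block (0.10) and with choroid plexus RNA as a term (0.0598).

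**Figure D4:**
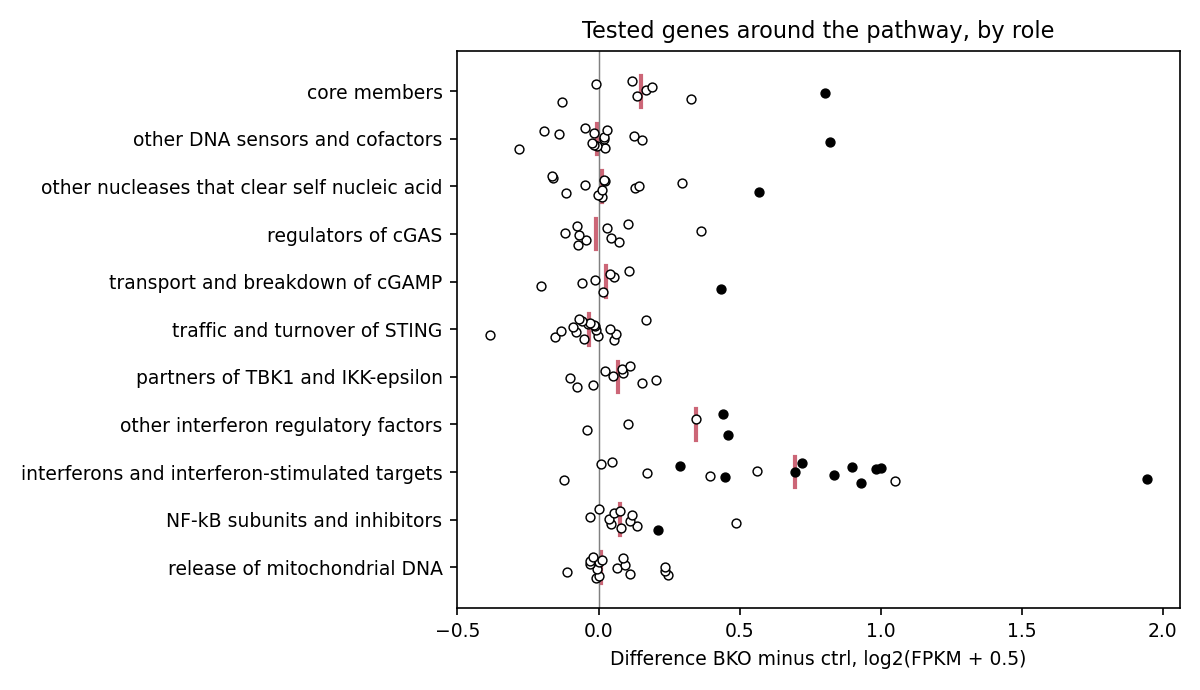
Differences BKO minus ctrl on the log2(FPKM + 0.5) scale for the tested genes of each list, filled where the adjusted p was under 0.05, with a red bar at the median of each list. Filled points are most numerous among the interferon-stimulated targets, 10 of 17, while the core holds 1 of 8. Over all genes tested, 5.79% were called in either direction.

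The genes whose pattern over the 10 libraries was most like that of Irf7 were Mgst1, G0s2, Col9a3, Upp1 and Hsd17b1. Likeness was the root mean square difference of the log2 values, each gene centred on its own mean. It was 0.175 for Mgst1, a membrane glutathione transferase, 0.188 for G0s2, an inhibitor of lipolysis, 0.192 for the collagen chain Col9a3, 0.194 for the uridine phosphorylase Upp1 and 0.196 for Hsd17b1, a steroid dehydrogenase, against a median of 0.496 over all genes. None of them belonged to the lists above. Since all 10 libraries enter this measure, genotype and choroid plexus RNA are both part of it. As these genes were chosen for following Irf7, their own differences between the genotypes are not given as results.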

How the data were processed

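Per the labels' protocols, Trizol was used to extract total RNA from brain cortex, followed by library preparation with a kit of the MGIEasy line. The authors deposited 1 table of FPKM values with 2 decimals, 1 column per library. STAR and HTSeq, and mm39 as the build, are named in the submitters' processing notes; versions, annotation and the FPKM formula are not given in the sources used here. The table had 0 columns of other samples.

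From these values, log2(FPKM + 0.5) was modelled by genotype (limma 3.58.1 under R 4.3.3, moderated with a mean-variance trend, 2-sided) for the 14447 genes that reached 0.5 FPKM in 5 or more of 10 libraries, with Benjamini-Hochberg adjustment over all of them. Cgas fell below the filter and was tested alone with an exact permutation test, 2-sided, as were the 2 within-library ratios, the latter on log2(FPKM + 0.5). Errors are given as SE (from limma, moderated) or as SD (between libraries). Without counts, no count test was run and no counting interval is given. Its code was first tested on simulated data with known changes.

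The members, lists, ratios, motifs and tests were chosen with earlier results of these data known. The text names all members, Chchd3, Ifnb1, up to 3 called genes per list and the 5 genes most like each called member. Named after their values were seen were C1qa, Gfap, Aldoc, Slc1a2, Gja1, Snap25, Ttr, Cxcl10, Rsad2, the genes that overlap members and the alpha interferons. As alternatives, the pseudocount was set to 0.1 or 1, the filter dropped or raised to 2 FPKM, and the libraries rescaled (median of ratios, equal sum, quantiles), weighted by quality or left out in turn; a robust fit and one with the replicate number as a block were also run. The split by choroid plexus RNA, at 500 FPKM of Ttr, was added after seeing the data. Summaries and plots used Python 3.11.15 (numpy 2.4.6; pandas 2.3.3; matplotlib 3.10.9). Promoter sequences came from RefSeq (GRCm38.p6), with 9 windows for 8 of the 9 members, as Sting1 was left out.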

Additional observations from a re-analysis of the deposited data

Results flagged for a closer look

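Samhd1 stood at 9.35 FPKM in BKO 3, far from the other 4 BKO libraries, which lay between 8.08 and 8.38 FPKM, the gap being 0.764 of the group's range. It was the only such library among the 20 sets of 5 values checked (the 9 members and Chchd3 in each genotype), and chance marks about 1 in 20.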

How the results depend on the processing

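Irf7 was the 1 member called higher, and 0 were called lower, under all 10 planned settings with every library and in all 10 fits with 1 library left out. Its log2 difference was 0.68 to 0.95 under the settings and 0.69 to 0.90 with 1 library left out. The exception was the set of 4 libraries without choroid plexus RNA, added later, where 0 members were called. There 148 genes rose and 103 fell, and 221 and 172 among the 6 with that RNA, where fewer libraries were fitted, against 480 and 356 in all 10. With 1 library left out, 375 to 512 genes rose and 261 to 346 fell. The difference of Tbk1 changed sign: it was 0.011 once every library was scaled to the same sum, 0.040 in the 4 libraries, and between -0.051 and 0.029 when single libraries were dropped. The ratio of Irf7 to Irf3, on the log2(FPKM + 0.5) scale, was 0.65 higher in BKO among the 6 libraries (exact permutation p = 0.10). Among the 4 it was 0.69 higher (exact permutation p = 0.333), each p being the smallest its set allows. With 1 library left out it was 0.57 to 0.74 higher. The ratio of Ikbke to Tbk1 was then 0.23 to 0.54 higher on that scale, the latter without BKO 1, and the difference of Cgas ranged from 0.001 to 0.134 FPKM.

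The shared replicate numbers showed no sign of pairing, as the correlations of same-numbered libraries ran from -0.169 to 0.0855. With only 5 libraries per group, such values cannot show that none were paired. With the replicate number as a block, Irf7 still rose by 0.80 (limma adjusted p = 0.0117), 415 genes rose and 287 fell, and Dnase2a (limma adjusted p = 0.0890) and Chuk (limma adjusted p = 0.10) lost their calls. The ratio of Irf7 to Irf3 was then 0.67 with p = 0.0625 in an exact sign-flip test, the smallest that 5 pairs allow.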
